A study of Glycine max with 12 samples.

Results

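The comparison of combined stress with control covered 6 of the 12 RNA sequencing libraries of the series, assigned to their groups by the sample titles: 3 from soybean pods under water deficit together with heat, and 3 from unstressed pods. The plants were Glycine max of the cultivar Magellan, grown from seed inoculated with Bradyrhizobium japonicum, the nitrogen-fixing partner of soybean, and kept for 16 to 18 days after transplanting until the first flower opened. Control plants were then watered to 100% of what transpiration could use, with days at 28 °C and nights at 24 °C. Plants under combined stress were watered to 30%, with days at 38 °C and nights at 28 °C. The remaining 6 libraries, used here only for comparison, were 3 from water deficit at the control temperatures and 3 from heat stress with full watering. Each library was made from 10 to 15 pods pooled from 8 to 10 plants. Each condition stood in a growth chamber of its own, so that the condition and its chamber cannot be told apart. The length of the stress and the age of the pods at harvest are not given in the sources used here.

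The study's title asks about transpiration of pods during a stress combination. As background, leaves lose heat by transpiration through open stomata, and water deficit closes stomata through the hormone abscisic acid, so that heat and drought pull the same organ in opposite directions. Heat also brings heat shock factors into play, transcription factors that raise chaperones which hold or refold damaged proteins. The pod is the ovary wall around the seeds, and it is at once a green organ, a store of nitrogen and sugar, and a cover that loses water.

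The count table listed 57147 gene IDs without gene names, and 0 of them matched the gene table at hand (assembly Glycine_max_v4.0). The changes are therefore described by groups of genes defined by direction, level and place, and 4 genes are named by their IDs. The 40 gene lists chosen by words in gene descriptions, among them chaperones, abscisic acid genes, stomatal genes and markers of pod, seed, flower and nodule, could not be applied. The pod label could not be checked against marker genes for the same reason.

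The 6 libraries held between 17405225 and 26591115 counts. Levels are given in CPM, a gene's counts scaled to the library's total after that total was adjusted by TMM. A level of 3 counts, taken as the smallest a library could show, corresponded to between 0.114 and 0.166 CPM. Replicates lay closer to each other than to the other condition. Across genes, which are not independent replicates, Pearson correlations of log2 CPM ran from 0.948 to 0.959 among control libraries, from 0.942 to 0.952 among combined-stress libraries, and from 0.874 to 0.907 between the conditions. The first principal component of the 6 libraries carried 53.2% of the variance and put control from -113.4 to -76.8 and combined stress from 80.97 to 99.16. The second carried 14.4%, and combined stress replicate 3 lay at 86.2 on it, against -44.5 and -28.4 for the other combined-stress libraries. Counts between 6 and 65 were even numbers in 59.6 to 75.5% of cases in these libraries, for a reason that was not tested, and the floor of 3 counts covers counting error only. The sources used here do not say whether both mates of a read pair were counted. If they were, the counts, the floor and the folds given below as "at least" would each rest on fewer fragments than their numbers show.

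Pods under combined stress differed from control pods in a large part of the genes measured. Of 38737 genes with enough counts to test, 5403 were called, which is 13.9% (edgeR's quasi-likelihood test, Benjamini-Hochberg adjusted p under 0.05). The higher genes numbered 2086, or 5.39% of those tested, and the lower genes 3317, or 8.56%. Fewer genes rose than fell. The median log2 change was 1.11 among the higher genes (quartiles 0.77 and 1.88) and -0.88 among the lower genes (quartiles -1.23 and -0.67), against 0.01 over all genes tested. A log2 change of 4 or more was seen in 169 of the higher genes (8.1%) and in 64 of the lower genes (1.93%). Within a class of mean level the medians of rises and falls lay closer together, at 0.86 and -0.81 between 10 and 100 CPM and at 0.86 and -0.75 between 100 and 1000 CPM. Changes of less than 1 on the log2 scale made up 903 of the rises and 2048 of the falls. Bulk RNA cannot tell fewer cells of a type from less RNA per cell, and this holds for all falls and rises here.

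**Figure D1:**
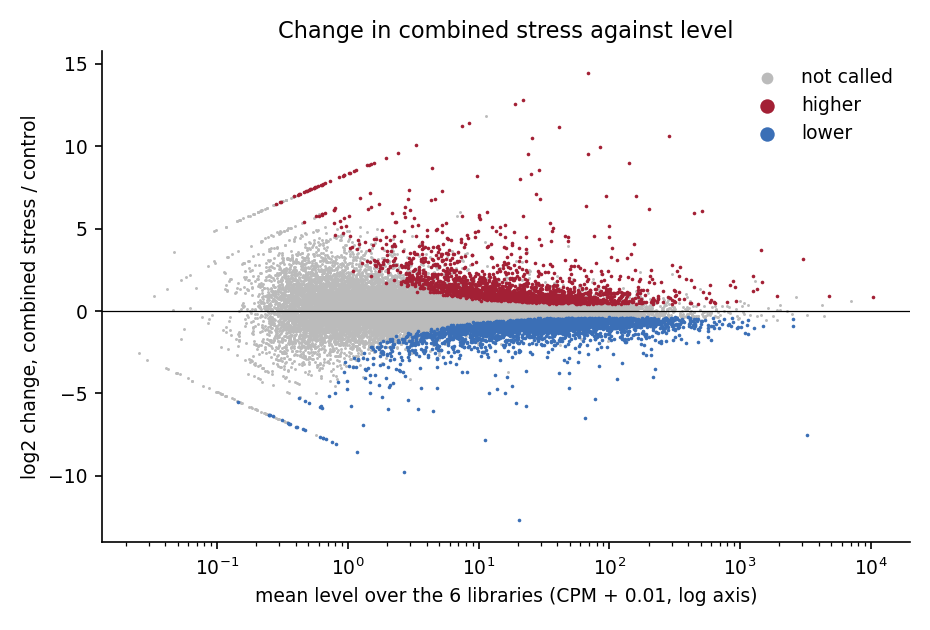
Each point is 1 of the 38737 genes tested, with its mean level over the 6 libraries on a log axis (CPM + 0.01) and its log2 change in combined stress over control. The 2086 higher genes (red) have quartiles of 0.77 and 1.88, and the 3317 lower genes (blue) have quartiles of -1.23 and -0.67. The higher genes reach beyond a log2 change of 14 and the lower genes at least to -12.69, fitted values that depend on the model's prior count. The lower genes are dense at levels above 10 CPM.

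The libraries of both conditions did not overlap in 2075 of the 2086 higher genes (99.5%) and in 3296 of the 3317 lower genes (99.4%). The same was true of 40.6% of all genes tested (19.8% upward and 20.9% downward), most of which were not called. The number of calls differed with the libraries fitted, and the cause was not tested, since leaving out a library changes its group's mean and n as well as the estimate of spread. The 12 libraries shared one estimate of spread, and the common biological coefficient of variation was 0.247 in control and 0.257 in combined stress, but 0.378 in heat stress and 0.429 in water deficit. Fitted on the 6 compared libraries alone, the test called 9216 genes (23.8% of those tested), 4305 higher (11.1%) and 4911 lower (12.7%). These included 2031 of the 2086 higher genes and 3268 of the 3317 lower genes with the same direction. Leaving out control replicate 1 gave 3225 calls, control replicate 2 gave 3426, combined stress replicate 1 gave 3461 and combined stress replicate 2 gave 3213. Without combined stress replicate 3, the library apart on the second component, 3747 genes were called. That library was the closest of the 3 to control in 40.4% of the 5403 calls, replicate 1 in 34.2% and replicate 2 in 25.4%. In the 6 fits that each left out 1 compared library, 877 of the higher genes (42.0%) and 1537 of the lower genes (46.3%) were called every time. Scaling by library size alone moved the share of rises among the calls from 38.6 to 47.7%.

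The balance of rises and falls changed with the level of the gene, taken as the mean CPM over the 6 libraries. CPM is not scaled by gene length, so that long genes count as more abundant. Of the 1414 genes between 100 and 1000 CPM, 476 fell (33.7%) and 158 rose (11.2%), and the median log2 change of the whole class was -0.22. Of the 17520 genes between 10 and 100 CPM, 2248 fell (12.8%) and 1235 rose (7.05%), with a median of -0.045. The order turned below 10 CPM. Of the 14996 genes between 1 and 10 CPM, 640 rose (4.27%) and 550 fell (3.67%), and the median of the class was 0.095. Scaled by library size alone, falls still outnumbered rises between 100 and 1000 CPM (29.6 against 12.9%) and between 10 and 100 CPM (10.3 against 8.65%). The same held in the fit of the 6 compared libraries, with 40.2 against 16.1% and 18.8 against 13.4%. Only 44 genes lay at 1000 CPM or more, of which 9 rose and 11 fell, and scaling by library size alone turned this order to 14 rises and 11 falls.

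**Figure D2:**
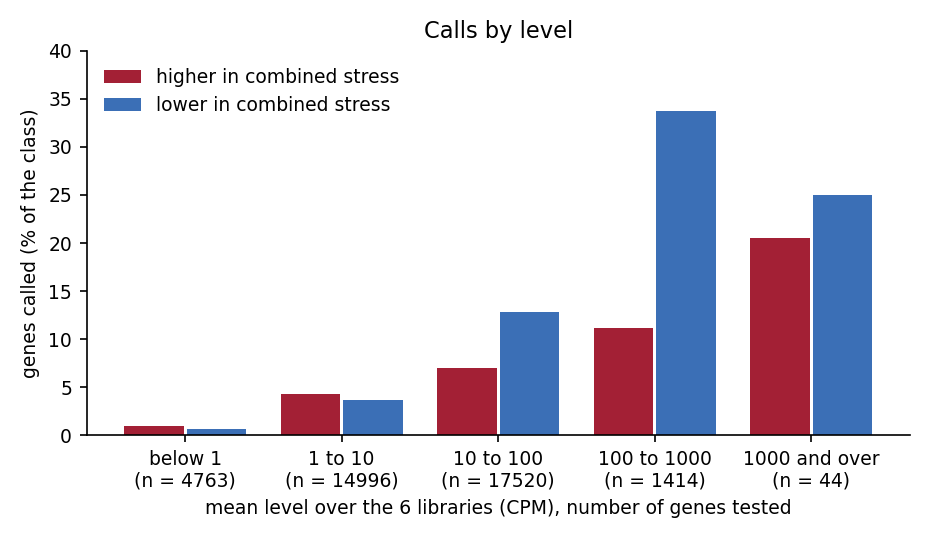
Bars give the percentage of genes called higher (red) or lower (blue) in combined stress in 5 classes of mean level over the 6 libraries, with the number of genes tested under each class. Falls reach 33.7% of the class between 100 and 1000 CPM, where rises reach 11.2%, while rises slightly exceed falls below 10 CPM.

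The level also set how small a change could be called. Below 1 CPM the median SE of a log2 change was 1.395, and the smallest change called was 3.07. Between 10 and 100 CPM the median SE was 0.20 and the smallest change called was 0.39. A smaller number of calls among scarce transcripts thus does not show a smaller number of changes, and 76 of the 4763 genes below 1 CPM were called (44 higher and 32 lower).

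In terms of the library as a whole, the genes that rose took a smaller part of the control transcriptome than the genes that fell. The genes that rose were also fewer, at 5.39% of the genes tested against 8.56%. The 2086 higher genes held 6.62 ± 0.12% of the counts in control (SD, n = 3) and 15.3 ± 0.67% in combined stress (SD, n = 3). The 3317 lower genes went from 27 ± 1.31% to 15.2 ± 0.45% (SD, n = 3 each). Since the genes were chosen by this contrast, these shares are a description. The heat-stress and water-deficit libraries are no part of that contrast, but the control libraries that chose the genes are also the ones they are set beside here, so that their place relative to control is a description too. In heat stress the higher genes held 12.0 ± 1.18% and the lower genes 21.4 ± 0.60% (SD, n = 3 each), between the means of control and combined stress. In water deficit the shares were 7.49 ± 0.63% and 25.5 ± 1.55% (SD, n = 3 each). For the lower genes the water-deficit libraries, from 23.9 to 27%, overlapped with the control libraries, from 25.8 to 28.4%. For the higher genes they did not overlap, with water deficit from 6.94 to 8.17% and control from 6.48 to 6.7%.

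A few abundant genes made up much of the rise. The 10 genes with the largest gain in CPM supplied 29.2% of the summed gain of the higher genes, and the 100 largest supplied 57.0%. For the lower genes the corresponding shares were 11.6 and 32.4%. The gene with the largest gain went from 9431, 6780 and 6191 CPM in control replicates 1 to 3 to 13602, 13327 and 13062 CPM in combined stress. Every combined-stress library thus lay above every control library, by a log2 change of 0.84 (SE 0.18, edgeR adjusted p = 0.00343). The second largest gain was from 944, 442 and 403 CPM in control to 5623, 5470 and 5137 CPM in combined stress, a log2 change of 3.18 (SE 0.43, edgeR adjusted p = 0.00126). It started from a level more than 10 times lower than the first and its control libraries differed more among themselves relative to their mean. The tenth largest gain showed the widest contrast of the 10: 17.2, 14.6 and 14.4 CPM in control became 1069, 1013 and 964 CPM in combined stress (log2 change 6.04, SE 0.21, edgeR adjusted p = 1.19e-12). The means of this gene were 1332 ± 389 CPM in heat stress and 6.85 ± 0.92 CPM in water deficit (SD, n = 3 each). All 3 genes are unnamed in the files and were picked by rank after the values were known.

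The genes named here by ID have the largest log2 changes among those called, with a mean of at least 10 CPM over the 6 libraries and no overlap between conditions, a rule that 4117 genes met (1398 higher and 2719 lower). Soybean locus tags carry the chromosome in their first digits. GLYMA_14G063700, on chromosome 14 by its ID, had 0 counts in all 3 control libraries and 115, 159 and 135 CPM in combined stress replicates 1 to 3. All control libraries were thus empty and all combined-stress libraries high, a level at least 886-fold higher against the floor of 3 counts per library (edgeR adjusted p = 0.000968). The fitted log2 change, which depends on the model's prior count, was 14.44 with edgeR and missed the threshold with limma-voom (12.56, adjusted p = 0.0852). In heat stress it had 94.9, 21.2 and 26.4 CPM and in water deficit at most 4 counts. Combined stress and heat stress did not differ beyond the test's threshold (log2 difference 1.52, SE 0.60, edgeR adjusted p = 0.232, in a comparison that called 5.25% of all genes tested). The difference passed without heat stress replicate 1, the highest of the 3 (2.53, edgeR adjusted p = 0.000128), with limma-voom (1.81, adjusted p = 0.0438) and with limma on log2(FPKM + 1) (1.94, adjusted p = 0.0245). It did not pass in the other settings tried, among them DESeq2 (adjusted p = 0.22) and the fit without heat stress replicate 3 (edgeR adjusted p = 0.408). Combined stress exceeded water deficit (edgeR adjusted p = 0.00142, with 13.4% of all genes called). With limma-voom this difference missed the threshold (log2 difference 10.15, adjusted p = 0.104).

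GLYMA_04G229800, on chromosome 4 by its ID, also had 0 counts in every control library. It stood at 47.3, 46.6 and 38.3 CPM in combined stress, at least 286-fold higher (edgeR adjusted p = 0.00527). Heat stress gave 18.7, 2.42 and 2.37 CPM, all below the combined-stress libraries, and water deficit at most 4 counts. The difference between combined stress and heat stress was 2.48 on the log2 scale (SE 0.86, edgeR adjusted p = 0.180), and that from water deficit passed (edgeR adjusted p = 0.00756). Without water deficit replicate 3, the difference from water deficit missed the threshold (edgeR adjusted p = 0.0524). The difference from heat stress passed without heat stress replicate 1 (4.21, edgeR adjusted p = 9.41e-05), with limma-voom (3.08, adjusted p = 0.00127) and with limma on log2(FPKM + 1) (adjusted p = 0.0159). In the other settings tried it did not pass, and DESeq2 gave no adjusted p. Both genes were thus empty in control, near the floor in water deficit and present in every heat-stress library, with heat stress replicate 1 the highest of the 3.

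The genes with the largest falls showed a different order of the conditions. GLYMA_07G048600, on chromosome 7 by its ID, had 45.5, 43.5 and 32.6 CPM in control replicates 1 to 3 and 0 counts in each combined-stress library, at least 244-fold lower (edgeR adjusted p = 0.000115). The water-deficit libraries held 1 count or none, and heat stress gave 5.91, 1.65 and 12.2 CPM. Combined stress was lower than heat stress, by at least 39.6-fold (edgeR adjusted p = 0.00265). Against water deficit, both groups were at or under the floor.

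GLYMA_02G028800, on chromosome 2 by its ID, had 28.1, 23.1 and 16.1 CPM in control. Combined stress left 0, 5 and 1 counts in replicates 1 to 3, a mean below the floor, so that no fold is given (fitted log2 change -7.82, SE 0.99, edgeR adjusted p = 0.000314). The fitted change was -9.69 without combined stress replicate 2, which held 5 of the 6 counts. Water deficit had 6, 4 and 3 counts and heat stress 4.49, 1.00 and 11.5 CPM. Combined stress was lower than heat stress (log2 difference -5.84, SE 0.98, edgeR adjusted p = 0.00635), but this missed the threshold with limma-voom (-5.835, adjusted p = 0.148). The difference from water deficit was -1.29 (SE 1.34, edgeR adjusted p = 0.594), which does not show that the 2 conditions are alike at such low counts. With limma on log2(FPKM + 1) the difference from water deficit passed (-2.70, adjusted p = 0.038).

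**Figure D3:**
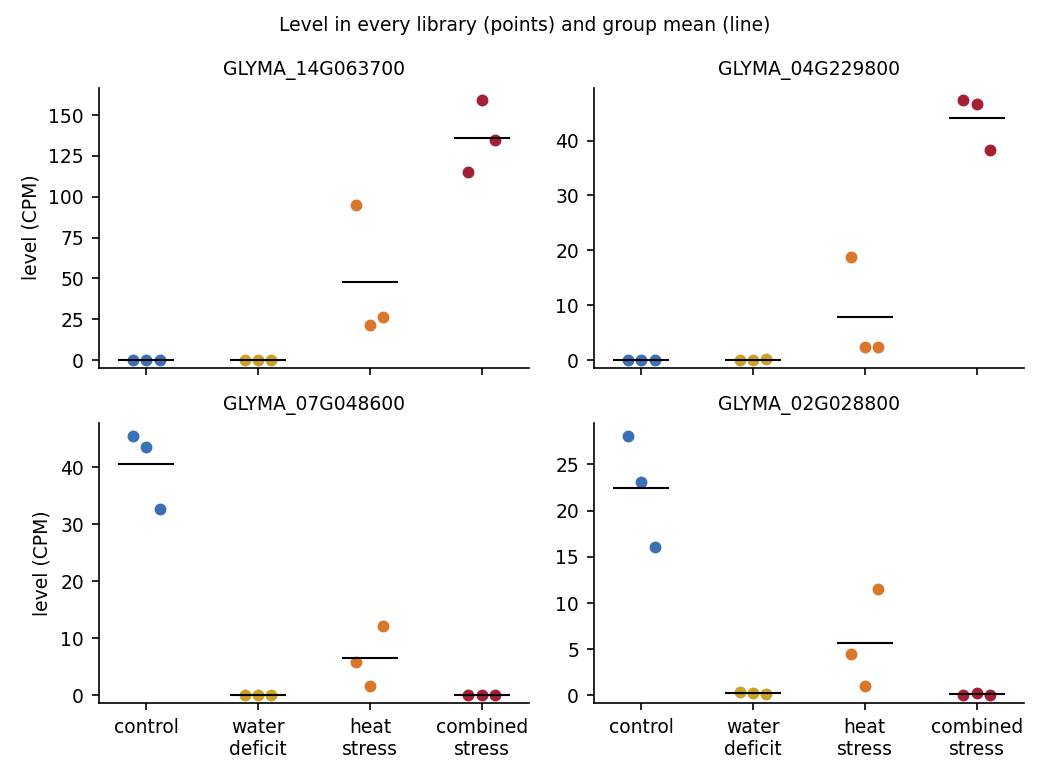
Each panel shows the level of 1 gene (CPM) in all 12 libraries, with a line at each group's mean. The genes of the upper panels are at 0 in control, near 0 in water deficit, intermediate in heat stress and highest in combined stress, and those of the lower panels are highest in control, intermediate in heat stress and near 0 in water deficit and combined stress.

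Neighbouring genes were called in the same direction slightly more often than all genes were. Locus tags rise in steps of 100 along a chromosome, and 28610 pairs of IDs that stand 1 step apart were both tested. Where the first of a pair was higher in combined stress, the next was also higher in 7.68% (117 of 1524), against 5.41% of all next IDs. Where the first was lower, the next was also lower in 10.7% (268 of 2508), against 8.49% of all. These shares are descriptions without a test, and near-identical neighbours may share reads, since the counting of such reads is not given in the sources used here. The longest unbroken runs were of 4 lower genes, found 4 times, and of 3 higher genes, found 7 times.

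The runs of lower genes with the largest changes lay on chromosomes 2 and 8. The run on chromosome 2, close to GLYMA_02G028800, held 4 genes with log2 changes of -6.48, -3.86, -7.55 and -4.97. The third of these lost more CPM than any other lower gene, from 7848, 6963 and 4431 CPM in control replicates 1 to 3 to 27.6, 41.0 and 34.2 CPM in combined stress (edgeR adjusted p = 0.00123). The 4 neighbours differed widely in level, with control means of 129, 24.9, 6414 and 2.87 CPM. The means of all 4 were lower in water deficit, at 7.82, 4.83, 643 and 0.0382 CPM, than in heat stress, at 46.1, 9.55, 2580 and 2.67 CPM. The run on chromosome 8 held 4 genes with control means of 6.75, 26.5, 94.6 and 15.3 CPM and combined-stress means of 0.0929, 1.00, 3.65 and 1.14 CPM. Its log2 changes were -5.97, -4.71, -4.69 and -3.69, with edgeR adjusted p from 0.000123 to 0.026. Here too the water-deficit means, 1.08, 3.42, 13.4 and 1.73 CPM, lay below the heat-stress means, 4.46, 23.5, 47.1 and 17.5 CPM. Of the runs of higher genes, the one whose smallest change was the largest lay on chromosome 19, with log2 changes of 3.22, 3.75 and 1.83 and combined-stress means of 11.2, 9.31 and 68 CPM. Its means in heat stress were 2.73, 0.89 and 26.6 CPM and in water deficit 2.3, 1.12 and 21.3 CPM.

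By chromosome, the calls were spread over the whole genome. Between 12.5% (chromosome 9) and 15.2% (chromosome 12) of the tested genes were called on each of the 20 chromosomes that the IDs name, close to 13.9% overall. Rises ranged from 4.53% on chromosome 2 to 6.62% on chromosome 14, and falls from 7.53% on chromosome 9 to 9.42% on chromosome 12. Of the 1250 IDs that begin with ENSRNA, 87 had enough counts to test and 1 was called.

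Some transcripts appeared from, or vanished to, the floor. Of genes with at most 3 counts in every control library, 77 reached a mean of at least 1 CPM in combined stress and 59 of these were called. Their median in combined stress was 1.86 CPM, and 5 of them were at 10 CPM or more in each combined-stress library. In the opposite direction, 20 genes that averaged 1 CPM or more in control had at most 3 counts in every combined-stress library, and 17 were called, with a median of 1.48 CPM in control and 1 gene, GLYMA_07G048600, at 10 CPM or more in each control library. Of the 59 that appeared, 10 had at most 3 counts in every heat-stress library and 15 in every water-deficit library, and 4 in both. Both classes were defined by the libraries compared, so that the numbers called follow in part from that choice and are a description.

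The heat-stress and water-deficit libraries, none of which is part of the contrast between combined stress and control, were then used to ask in which single stress the changed genes stood higher. This comparison was added after the data were seen. More of the genes that rose in combined stress were called higher than lower in heat, more of those that fell were called lower than higher, and most of either kind passed in neither direction. Among the 2086 higher genes, 382 (18.3%) were called higher and 16 (0.767%) lower in heat stress than in water deficit, against 2.1 and 1.69% of all genes tested (edgeR adjusted p under 0.05). Among the 3317 lower genes, 59 (1.78%) were called higher and 350 (10.6%) lower. The level of a gene also bears on how small a change can be called. These sets and all genes tested were not matched for level, here or below, and the part that level played was not tested. The median log2 difference between heat stress and water deficit was 0.355 for the higher genes and -0.24 for the lower genes, against 0.01 for all tested. The difference was positive for 74.4% of the higher genes, 25.7% of the lower genes and 51.1% of all tested. Seen from the other side, the 382 shared genes made up 46.9% of the 814 genes higher in heat than in water deficit. Over all genes tested, 5.39% were higher in combined stress than in control. The 350 made up 53.4% of the 655 genes lower in heat, against 8.56% of all genes tested that were lower in combined stress. In the opposite direction, 7.25% of the 814 were lower and 2.44% of the 655 higher in combined stress than in control.

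The contrasts shared one fit and its estimate of spread, and were therefore also fitted apart. With the changed genes chosen in the fit of control and combined stress and measured in a fit of the other 6 libraries, 169 of 4305 higher genes were higher and 4 lower in heat than in water deficit. Of 4911 lower genes, 25 were higher and 90 lower, and the medians were 0.28 and -0.23. In that fit 0.712% of all genes tested were called higher and 0.377% lower in heat. Water deficit replicate 2 had 87.5% even numbers among its low counts, against at most 78.8% in any other library. Without it the counts were 283 and 15 for the higher genes and 38 and 213 for the lower genes, against 1.35 and 1.12% of all genes tested. Without water deficit replicate 3 they were 265 and 11, and 31 and 204, against 1.33 and 0.909% of all. Without heat stress replicate 3 they were 321 and 9, and 32 and 193, against 1.42 and 0.865% of all. Without control replicate 1, 25 in place of 16 higher genes were called lower in heat than in water deficit.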

How the data were processed

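Libraries were put into groups by their titles, and the comparison described, its members and the gene lists were chosen with earlier results of these data known. The authors deposited read counts per gene ID and an FPKM table (fragments scaled by gene length and library), 1 column per library. The submitters' processing notes name HISAT2 2.2.1. The counting tool, strand setting, annotation and build are not given in the sources used here. All 12 columns were matched to samples by their descriptions. The deposited counts were used as they stand, and the deposited FPKM, which is not a fixed multiple of the counts, only in an alternative.

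Genes were filtered with edgeR's filterByExpr by group (38737 of 57147 kept, and 10560 of the rest had 0 counts in all 6 compared libraries), scaled by TMM and tested with edgeR's quasi-likelihood test (4.0.16, R 4.3.3, robust) in one fit of 4 group means over 12 libraries. The Benjamini-Hochberg adjustment ran over all genes tested, and an adjusted p under 0.05 made a call. SE is the log2 change divided by the square root of F, which is approximate. P-values measure the spread between pooled libraries. A level of at most 3 counts is the floor for folds. The rule for named genes also asked for a gene name, and since no ID has one, its fallback of 2 IDs in each direction was used. The 40 lists were not run. The scripts were tested on simulated counts. Alternatives were DESeq2 (1.42.0), limma-voom and limma on log2(FPKM + 1) (3.58.1), other scalings, filters, thresholds and fits. Left-out libraries kept the same genes tested.

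Same-numbered control and combined-stress libraries did not deviate together, and no pairing was assumed.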

Additional observations from a re-analysis of the deposited data

How the results depend on the processing

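The number of genes called in combined stress stayed within 1.5 times of 5403 under other scalings, filters, DESeq2, limma-voom and limma on FPKM. It was 9216 in the fit of the 6 compared libraries (4305 higher, 4911 lower), 2709 at an adjusted p under 0.01 (941 higher, 1768 lower) and 2452 with an absolute log2 change of at least 1 (1183 higher, 1269 lower). Fewer calls follow from the stricter thresholds themselves, and for the other changes the cause was not tested. Leaving out 1 compared library gave from 3213 to 4090 calls, from 1132 to 1565 higher and from 1966 to 2525 lower. Leaving out 1 of the other libraries gave from 4897 to 6613 calls, from 2027 to 2991 higher and from 2870 to 3937 lower.

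Of 8 tests of the 4 named genes against both single stresses, 4 passed, 7 with limma on FPKM, 6 without heat stress replicate 1, and 3 with DESeq2 or without water deficit replicate 3. With limma-voom 4 passed, but not the same 4. Both rising genes passed against heat stress there, while GLYMA_02G028800 against heat stress and GLYMA_14G063700 against water deficit did not. No named gene reversed, and DESeq2 gave no adjusted p for GLYMA_04G229800. The median log2 difference between heat and water deficit for the higher genes was 0.25 with FPKM in place of 0.355. The replicate number as a block gave 4963 calls, of which 4821 were among the 5403 with the same direction. Deviations of same-numbered control and combined-stress libraries correlated at -0.047, 0.0551 and -0.0571, and no replicate correlated best with its own number except number 2. With 3 libraries in each group, this cannot show whether same-numbered libraries share more than the number. Below 1 CPM the median SE of a log2 change was 1.395, and the part that depth played in this was not tested.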
